A study of Mus musculus with 3 samples.

Results

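7 globin genes, 2 genes of heme synthesis and 1 erythroid transcription factor were followed in dissociated mouse ovaries: Hba-a1, Hba-a2, Hba-x, Hbb-bs, Hbb-bt, Hbb-y, Hbb-bh1, Alas2, Cpox and Klf1. These 10 genes were found by symbol among the 53465 genes of the count tables, each as a single row. Red cells were defined as barcodes in which Hba-a1, Hba-a2, Hbb-bs and Hbb-bt together held at least 10% of all UMIs, the molecule tags that are counted in place of reads. This rule found 167 of 1554 cells, and it was applied on the adult globins alone. The red cells were then split at 1000 detected genes, and the cells below 10% gave the level of free globin RNA.

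The ovaries came from wild-type C57BL/6 females at embryonic day 16.5 (E16.5), postnatal day 7 (P7) and postnatal day 14 (P14), with no treatment named in the labels. They were dissociated with collagenase, filtered and captured in droplets with the Chromium 3′ v2 kit, which counts transcripts near their polyadenylated ends. Each age is 1 library, and the number of animals behind it is not given in the labels, so ages cannot be told apart from animals or preparations and no test between ages was possible. The title of the embryonic library names a slightly later day than its age label, and the age label was used. Ovaries were collected with the blood they held, and the labels describe the cells of all 3 libraries as mixed.

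Hemoglobin joins alpha-type and beta-type globin chains, each around a heme group. In mice the primitive red cells of the yolk sac make the embryonic chains from Hba-x (zeta), Hbb-bh1 and Hbb-y, and within these cells Hbb-bh1 and Hba-x give way over time to Hbb-y and the adult alpha genes. Definitive red cells from fetal liver, and later from spleen and bone marrow, make the adult chains from Hba-a1, Hba-a2, Hbb-bs and Hbb-bt. Hbb-bs and Hbb-bt are the adult beta genes of the haplotype that C57BL/6 carries. Alas2 makes the rate-limiting enzyme of heme synthesis in red cells, Cpox makes coproporphyrinogen oxidase, which acts in a late step in mitochondria, and Klf1 makes a transcription factor that drives adult beta globin and many other erythroid genes. During maturation red cells stop dividing, expel the nucleus and keep translating stored globin mRNA as reticulocytes.

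All 10 members are protein-coding genes in the GENCODE M21 annotation of GRCm38. The alpha-type genes lie on chromosome 11 in the order Hba-x (32276400 to 32278116), Hba-a1 (32283511 to 32284465) and Hba-a2 (32296489 to 32297298), all on the plus strand. The beta-type genes lie on the minus strand of chromosome 7 as Hbb-y (103851749 to 103853216), Hbb-bh1 (103841637 to 103843164), Hbb-bs (103826534 to 103828096) and Hbb-bt (103812524 to 103813996). Alas2 is on chromosome X (150547375 to 150570638), Cpox on chromosome 16 (58670292 to 58717636) and Klf1 on chromosome 8 (84901928 to 84905291). No member overlaps another gene on its own strand, while Alas2 overlaps Apex2 and Mir3620, and Cpox overlaps Gpr15, on the opposite strand.

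The promoters of the adult and embryonic globins are shown beside those of the 3 other genes because the members were read together, as genes known to share erythroid regulators. Each run is the 150 bases before the RefSeq transcription start (RefSeq, GRCm38.p6), 5′ to 3′ on the gene's strand, and of the members only Hbb-bh1 had no entry. Capitals mark the letters GATAA, the core of the site of GATA factors, CACCC, the box known from globin promoters, and CCNCNCCC, a site form of KLF factors, on either strand, so that a match on the other strand shows as the reverse complement. Adjoining or overlapping matches run together, and CACCC can lie inside CCNCNCCC.
Hba-a1, chr11:32283522-32283671 (+): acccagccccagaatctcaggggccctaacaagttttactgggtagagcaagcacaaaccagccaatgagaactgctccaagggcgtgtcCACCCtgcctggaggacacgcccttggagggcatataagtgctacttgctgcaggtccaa
Hba-x, chr11:32276450-32276599 (+): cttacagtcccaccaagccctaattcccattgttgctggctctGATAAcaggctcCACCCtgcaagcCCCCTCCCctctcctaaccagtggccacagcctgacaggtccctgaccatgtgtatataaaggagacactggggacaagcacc
Hbb-bs, chr7:103827929-103828078 (-): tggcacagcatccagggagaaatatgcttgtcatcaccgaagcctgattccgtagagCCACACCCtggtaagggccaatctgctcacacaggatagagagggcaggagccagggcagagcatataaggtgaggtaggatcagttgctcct
Hbb-bt, chr7:103813924-103814073 (-): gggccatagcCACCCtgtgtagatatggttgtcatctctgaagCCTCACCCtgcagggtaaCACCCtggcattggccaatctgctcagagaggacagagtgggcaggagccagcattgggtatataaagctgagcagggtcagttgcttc
Hbb-y, chr7:103853208-103853357 (-): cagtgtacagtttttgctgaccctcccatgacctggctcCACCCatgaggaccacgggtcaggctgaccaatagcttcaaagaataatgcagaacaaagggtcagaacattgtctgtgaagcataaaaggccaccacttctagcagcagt
Alas2, chrX:150547267-150547416 (+): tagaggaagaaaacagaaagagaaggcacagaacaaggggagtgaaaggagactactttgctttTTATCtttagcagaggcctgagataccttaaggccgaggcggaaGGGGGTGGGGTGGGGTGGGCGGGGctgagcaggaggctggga
Cpox, chr16:58670058-58670207 (+): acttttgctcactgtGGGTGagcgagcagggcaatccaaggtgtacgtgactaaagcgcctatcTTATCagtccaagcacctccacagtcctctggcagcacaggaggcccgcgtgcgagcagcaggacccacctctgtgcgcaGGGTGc
Klf1, chr8:84901832-84901981 (+): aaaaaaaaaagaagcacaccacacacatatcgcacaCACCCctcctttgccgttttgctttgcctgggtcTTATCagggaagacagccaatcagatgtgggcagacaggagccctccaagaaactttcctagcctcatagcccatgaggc

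CACCC was found in 9 of 9 member promoters, against 37.4% of the 32851 RefSeq promoters searched in the same window. GATAA was found in 4 of 9 (Hba-x, Alas2, Cpox and Klf1), against 13.3% of all promoters, and CCNCNCCC in 4 of 9 (Hba-x, Hbb-bs, Hbb-bt and Alas2), against 38.1%. Both Hbb-bt and Alas2 held 3 CACCC boxes, and Alas2 also held 4 overlapping CCNCNCCC matches. The Hba-a2 promoter, not printed, matched that of Hba-a1 over a run of 147 bases. These matches describe letters in the window and were not tied to binding. The transcripts themselves are close copies: Hba-a1 and Hba-a2 were 89.6% identical over their last 300 bases, and Hbb-bs and Hbb-bt 86.2%. Their longest shared runs were 415 and 430 bases over the whole transcripts, and 161 and 140 bases within those last 300. The split of UMIs within each of these pairs is therefore uncertain, while the embryonic genes were more distant (Hbb-bs and Hbb-y 65.4%, Hba-a1 and Hba-x 57.4%).

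The libraries held 459, 510 and 585 barcodes at E16.5, P7 and P14, with 8994085, 8743797 and 9065595 UMIs and a median of 14877, 12213 and 11429 UMIs per cell. No barcode was shared between libraries. Intervals below are exact 95% intervals (Poisson for levels, Clopper-Pearson for shares, conditional binomial for ratios) and cover counting error only, since cells of 1 library are not replicates. No doublet caller was run, and the cells whose markers pointed to another class are named where they bear on a value.

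Red cells were 142 of 459 barcodes at E16.5 (30.9%, interval 26.7% to 35.4%), 14 of 510 at P7 (2.75%, 1.51% to 4.56%) and 11 of 585 at P14 (1.88%, 0.942% to 3.34%). The intervals of P7 and P14 overlapped each other and lay below that of E16.5. Of the 142 red cells at E16.5, 40 had under 1000 detected genes, with a median of 500.5 genes, and 102 had 1000 or more, with a median of 2341.5 genes. At P7 the split was 6 and 8 cells, and at P14 it was 10 cells and a single cell of 1169 genes. Fewer red cells in the tissue and a different amount of blood left in the sample cannot be told apart here.

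The cells under 1000 genes were nearly pure globin. Their median adult globin share was 92.8% at E16.5 (range 77.3% to 97.5%), 91.3% at P7 and 94.6% at P14. In cells with 1000 or more genes the median was 46.5% at E16.5 (10.2% to 92.0%) and 45.6% at P7 (21.9% to 69.3%), whereas the single P14 cell held 95.1%. The 10% line cut through a continuum at E16.5 and through a gap after birth. At E16.5 the cells just inside it had 10.2% and 10.3%, and those just outside had 9.36% and 9.0%. At P7 they had 21.9% and 33.7% inside and 2.36% and 0.983% outside, and at P14 93.1% and 94.2% inside and 6.37% and 0.119% outside. At the 1000-gene line the E16.5 cells had 1039 and 1051 genes just inside and 991 and 960 just outside.

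**Figure D1:**
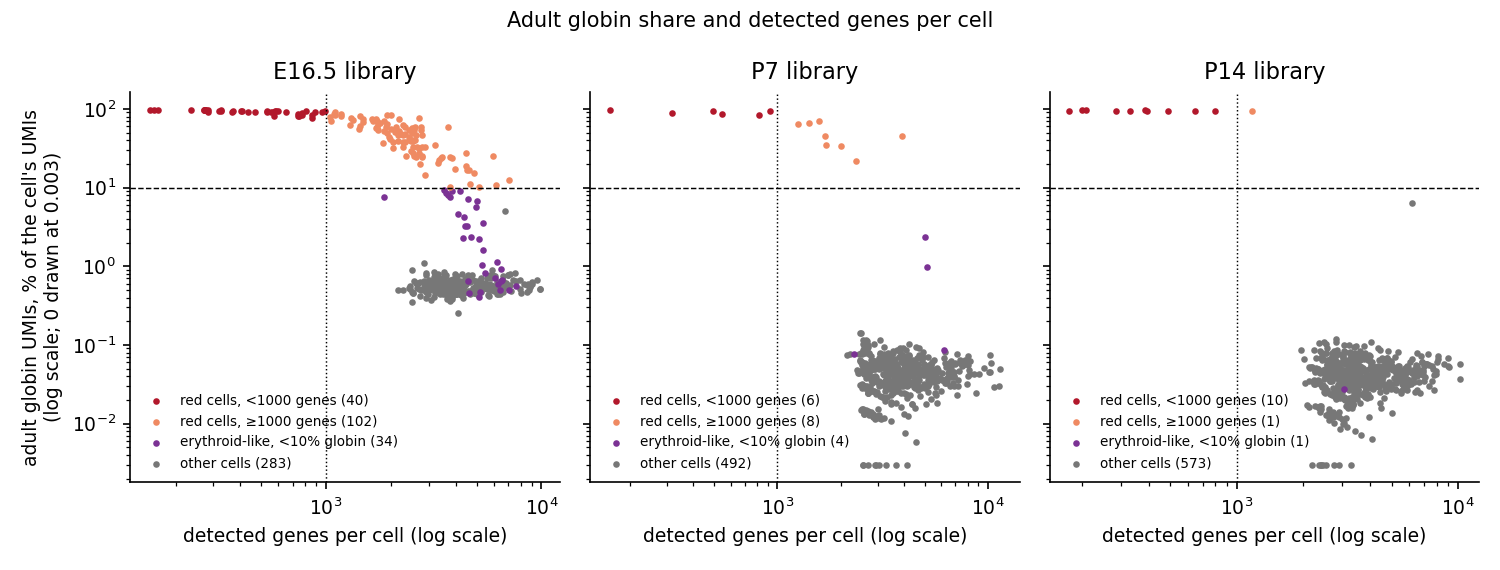
Each point is a cell, with its detected genes on a log axis against the percent of its UMIs from the 4 adult globins on a log axis (cells at 0 drawn at 0.003), in 1 panel per age; lines mark the 10% rule and the 1000-gene split. At E16.5 the red cells run between 10.2% and 97.5%, while at P14 all 11 red cells lie above 93% and the next cell lies at 6.37%.

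Erythroid markers fitted the label of the red cells. The erythroid marker list, which includes Alas2 and Klf1, summed to 2157 UMIs against 97 UMIs for the lists of all other cell classes in E16.5 red cells under 1000 genes, and to 17529 against 1089 UMIs in those with 1000 or more. In the remaining E16.5 cells, those of an erythroid-like cluster left out, the same lists summed to 729 and 35926 UMIs. Of the red cells 4, all with 1000 or more genes, held fewer UMIs of the erythroid markers than of the markers of all other classes together. At E16.5 these were 2 cells with endothelial markers (217 and 167 UMIs) and 1 whose highest other class was granulosa (68 UMIs, with 83 erythroid and 158 of all other classes), and at P7 it was 1 cell with smooth muscle or pericyte markers (104 UMIs), which had 38 Alas2, 0 Cpox and 0 Klf1 UMIs. Their part in the results was tested only for the embryonic shares, which moved by less than counting error without them.

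All 4 adult globins were abundant in every red cell group, which the rule required, so their levels are given as a description. On the scale of all UMIs scaled to a sum of 1000000 (CPM), Hba-a1, an adult alpha gene, stood at 248628, 304465 and 254438 CPM in red cells under 1000 genes at E16.5, P7 and P14. Its close copy Hba-a2 stood at 211691, 171271 and 189751 CPM in the same cells. Hbb-bs, the more abundant adult beta gene, stood at 335887, 353492 and 418033 CPM. Hbb-bt, the other adult beta gene, stood at 126495, 82655 and 85724 CPM and was the lowest of the 4 at each age.

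Alpha and beta output was close to even in the red cells. Adult alpha genes gave 49.9% of adult globin UMIs in E16.5 cells under 1000 genes and 50.3% in those with 1000 or more. The shares were 52.2% and 54.1% at P7, and 46.9% and 50.6% at P14. In the cells below 10%, without the erythroid-like cluster, the alpha share was lower at each age, at 37.2%, 37.9% and 38.0% for E16.5, P7 and P14. At P14 1 endothelium-like cell held 1188 of the 2302 adult alpha UMIs of these cells. Over the cells with at least 20 adult globin UMIs (283, 31 and 26), the median alpha shares were 36.1%, 36.4% and 26.8%.

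**Figure D2:**
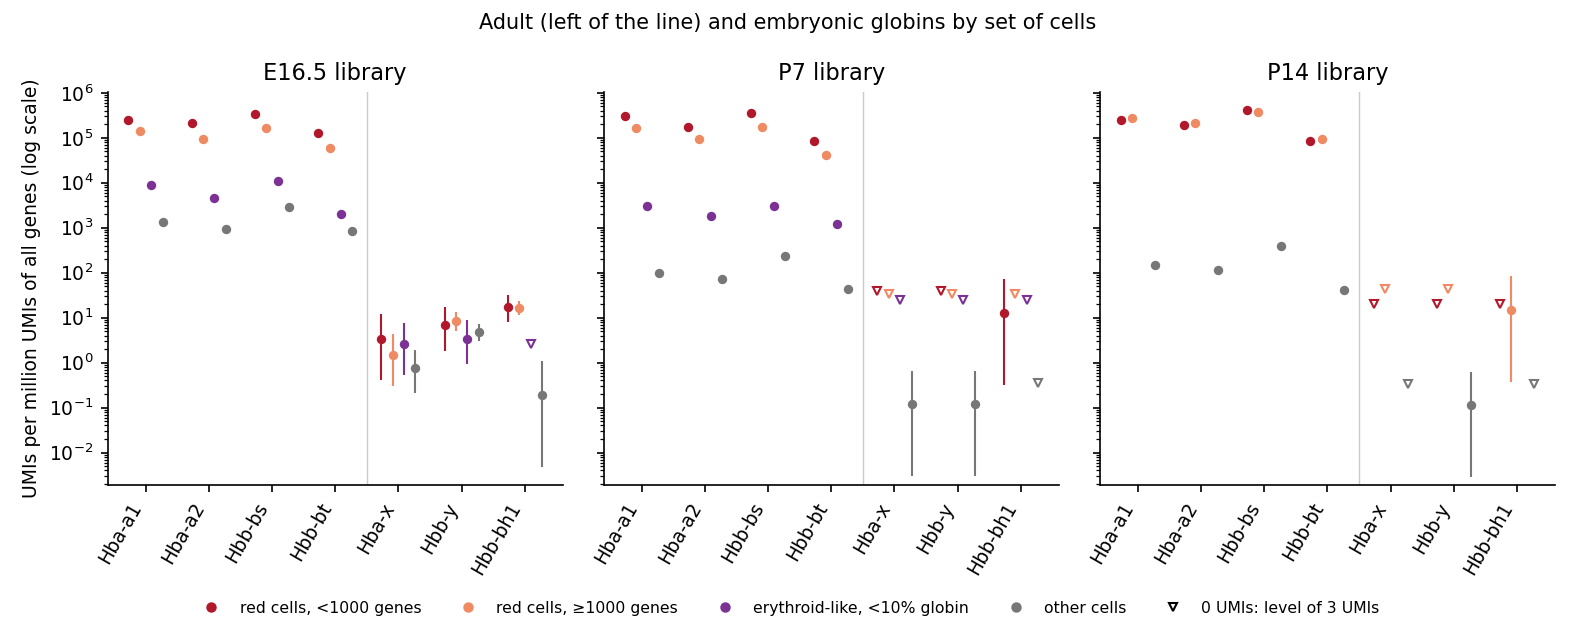
Levels of the 7 globins in CPM of all UMIs on a log axis, for red cells under 1000 genes, red cells with 1000 or more genes, erythroid-like cells and other cells, at each age; bars are exact 95% Poisson intervals, and triangles stand for the level of 3 UMIs where 0 were counted, and the single erythroid-like P14 cell is not drawn. At E16.5 Hbb-bs reaches 335887 CPM in red cells under 1000 genes, against 16.6 CPM of Hbb-bh1 and 8.11 CPM of Hbb-y over all red cells.

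The split between the adult beta genes differed between the libraries. Hbb-bt gave 27.4% of adult beta UMIs in E16.5 red cells under 1000 genes, 19.0% in the P7 cells and 17.0% in the P14 cells. Single cells spanned 16.9% to 37.3% with a median of 26.2% at E16.5, 12.5% to 21.4% with a median of 18.5% at P7, and 13.4% to 21.2% with a median of 17.1% at P14. The median E16.5 cell was thus above the highest P7 and P14 cell, while the ranges overlapped. In red cells with 1000 or more genes Hbb-bt gave 26.1% at E16.5 (cells 5.56% to 39.1%, median 23.6%), 19.5% at P7 (10.1% to 24.6%, median 21.3%) and 20.5% in the single P14 cell.

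Among E16.5 red cells the Hbb-bt share also varied with the number of detected genes. In 6 steps, of under 500 genes and then starting at 500, 1000, 2000, 3000 and 4000 genes, it was 25.4%, 28.7%, 27.9%, 25.5%, 22.4% and 21.0%. The share of Hba-a2 among adult alpha UMIs ran 44.7%, 46.9%, 42.8%, 38.2%, 36.3% and 35.7% over the same steps. Both shares were thus lower in the cells with the most genes. That last step includes the 3 red cells with more UMIs of other markers than of erythroid ones, and their part in it was not tested. The median adult globin share ran the same way, at 95.7%, 91.0%, 69.4%, 40.4%, 23.6% and 16.0%. Between ages Hba-a2 did not follow Hbb-bt: it gave 46.0%, 36.0% and 42.7% of adult alpha UMIs in red cells under 1000 genes at E16.5, P7 and P14. With close copies in both pairs, a shift in how reads were assigned between them was not tested.

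**Figure D3:**
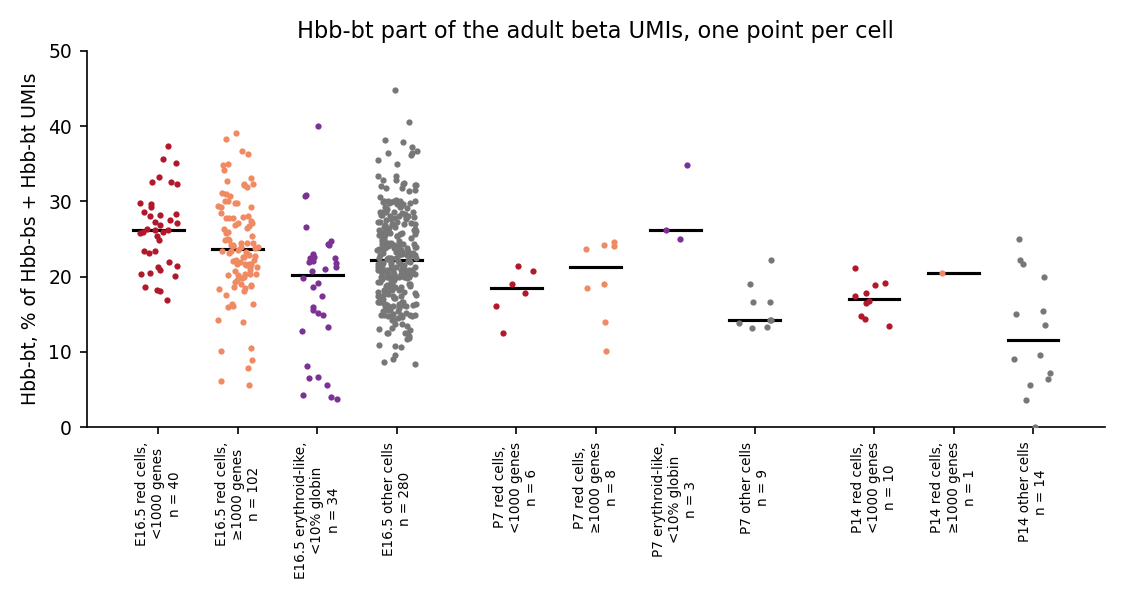
Share of Hbb-bt among adult beta UMIs (percent) in each cell with at least 20 such UMIs, by cell group and age; the line is the median. In red cells under 1000 genes the medians are 26.2%, 18.5% and 17.1% at E16.5, P7 and P14.

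Embryonic globins were close to absent from the red cells at E16.5. Hba-x, the embryonic alpha-type gene, had 2 UMIs in cells under 1000 genes and 3 in those with 1000 or more, or 5 of 730885 alpha-type UMIs (0.000684%, interval 0.000222% to 0.0016%). Hbb-y had 4 and 17 UMIs, or 21 in 16 of 142 cells. Hbb-bh1 had 10 and 33 UMIs, or 43 in 26 of 142 cells. Together the embryonic beta-type genes gave 64 of 727545 beta-type UMIs, or 0.0088% (0.00677% to 0.0112%). The adult genes thus gave nearly all globin UMIs of these cells, and the embryonic share was larger on the beta side than on the alpha side, with intervals that do not overlap.

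The embryonic beta share was 0.00514% (0.00281% to 0.00863%) in cells under 1000 genes and 0.011% (0.00815% to 0.0145%) in cells with 1000 or more. The share in cells with 1000 or more genes was 2.13 times that under 1000 (interval 1.16 to 4.18). A pair of cells, singled out after their values were seen, held 17 of the 64 embryonic beta UMIs. In the cell with the most embryonic UMIs Hbb-bh1 had 10, beside 3169 of Hbb-bs, 1693 of Hbb-bt, 18 of Alas2, 26 of Cpox and 9 of Klf1. The next cell had 7 Hbb-bh1 UMIs beside 3581 of Hbb-bs, 2035 of Hbb-bt, 26 of Alas2, 20 of Cpox and 13 of Klf1. Even in these cells the adult beta UMIs far outnumbered the embryonic ones. Without this pair of cells Hbb-bh1 had 26 UMIs in the other 140 red cells, or 0.00363% of their beta-type UMIs (0.00237% to 0.00531%), while over all 142 it gave 0.00591%. The embryonic beta share of cells with 1000 or more genes was then 0.00742% (0.00511% to 0.0104%), or 1.44 times that under 1000 (0.751 to 2.92), so that the difference across the split rests on these cells.

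Counts per cell were too low to say how often the embryonic genes occurred together. Of 142 red cells at E16.5, 43 had any embryonic UMI, 2 had both Hbb-y and Hbb-bh1, 1 had Hbb-y and Hba-x, and 1 had Hba-x and Hbb-bh1. A red cell had 4 Hbb-y UMIs with 48 of Alas2, 1 of Cpox and 0 of Klf1. Among cells below 10%, 1 erythroid-like cell had 3 Hba-x UMIs and 1 Hbb-y UMI beside 970 of Hbb-bs, 30 of Cpox, 22 of Klf1 and 0 of Alas2. No cell in these libraries carried embryonic globins as its main globins, the highest count being 10 UMIs.

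After birth the red cells held a single embryonic UMI at each age, of Hbb-bh1. It was 1 of 53991 beta-type UMIs at P7 (0.00185%) and 1 of 105999 at P14 (0.000943%), in each case in the red cell with most UMIs of its library. Hba-x and Hbb-y were not counted. The upper limits of these counts of 0 are 0.00609% of alpha-type UMIs for Hba-x and 0.00683% of beta-type UMIs for Hbb-y at P7. At P14 they are 0.00376% and 0.00348%. For Hbb-y the limits lie above the E16.5 share of 0.00289%, so a difference from E16.5 was not detectable at this depth.

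The embryonic RNA outside the red cells had a different makeup. Among the 283 E16.5 cells below 10% and outside the erythroid-like cluster, Hbb-y had 25 UMIs in 25 cells, Hbb-bh1 had 1 UMI and Hba-x had 4. Hbb-y was thus 32.8% of embryonic beta UMIs in red cells (21.6% to 45.7%), against 96.2% in these other cells (80.4% to 99.9%). Relative to beta-type UMIs, Hbb-y gave 0.00289% in red cells and 0.125% in the other cells, 43.5-fold higher in the other cells (23.4 to 81.7). Hba-x relative to alpha-type UMIs was 49.5-fold higher in the other cells (9.82 to 230), on 5 UMIs in red cells and 4 in the others. For Hbb-bh1 the same ratio was 0.849 (0.021 to 4.99), which leaves its direction undetermined.

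The Hbb-y UMIs outside the red cells were spread over classes, with 13 in the 84 cells of an unnamed cluster led by Gng13, 5 in 107 stroma-like, 5 in 68 germ cell-like, 1 in 17 endothelium-like and 1 in 6 immune-like cells, and no cell had more than 1. The share of cells with an Hbb-y UMI was 11.3% in red cells and 8.83% in the other cells, at median depths of 15171.5 and 13877 UMIs. After thinning every cell to 5000 UMIs it was 5.00% in red cells under 1000 genes, 2.94% in those with 1000 or more and 2.12% in the other cells. Hbb-y in single red cells thus stood near its level in cells of classes that should lack it, and on the scale of all UMIs it was 8.11 CPM in red cells and 4.77 CPM in the others. Hbb-bh1 stood apart from that background, with 16.6 CPM in red cells and 0.191 CPM in the others. The source of the Hbb-y UMIs outside red cells was not tested.

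Heme synthesis was compared on the scale of UMIs that are not from globin genes, since globins took 92.3% of UMIs in E16.5 red cells under 1000 genes and 45.8% in those with 1000 or more. Of the 3 members Alas2 differed most between red cells and other cells. It stood at 24615 CPM in E16.5 red cells under 1000 genes (23190 to 26104; 1113 UMIs in 37 of 40 cells), 2709 CPM in those with 1000 or more (2612 to 2809; 101 of 102 cells) and 27.7 CPM in other cells outside the erythroid-like cluster. Cpox stood at 1017, 1671 and 28.4 CPM in the same groups, and Klf1 at 288, 861 and 10.8 CPM.

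The 3 genes ran in different directions across the 1000-gene split. Alas2 was 9.09 times as high in E16.5 red cells under 1000 genes as in those with 1000 or more (8.47 to 9.74), while Cpox was 0.609 times (0.444 to 0.816) and Klf1 0.334 times as high (0.177 to 0.574). At P7 the ratio of Alas2 was 8.99 (7.18 to 11.3), and those of Cpox, 0.739 (0.26 to 1.71), and Klf1, 0.924 (0.284 to 2.35), had intervals that include 1. The P7 sum at 1000 or more genes includes the cell with pericyte markers, which had 0 Cpox and 0 Klf1 UMIs. On the scale of all UMIs, Alas2 kept its direction, with 1891 CPM under 1000 genes and 1468 CPM at 1000 or more, as did Cpox (78.1 and 906 CPM) and Klf1 (22.1 and 467 CPM). Relative to adult globin the direction of Alas2 turned, with 2.05 UMIs per 1000 adult globin UMIs under 1000 genes (1.93 to 2.17) and 3.21 at 1000 or more (3.09 to 3.33) at E16.5, and 2.57 (2.21 to 2.97) and 3.29 (2.77 to 3.87) at P7.

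The steps by detected genes gave an order. In E16.5 red cells Alas2 stood at 35013, 20981, 8227, 2860, 988 and 541 CPM over the 6 steps given above, with the cells under 500 genes first and those of 4000 or more last. On this scale of non-globin UMIs Alas2 was thus highest in the cells with the fewest genes and lower at each step. Non-globin UMIs were a small part of all UMIs in those cells. Their median adult globin share was 95.7% under 500 genes, against 16.0% at 4000 or more. The order of the steps on the scale of all UMIs was not computed. Cpox stood at 683, 1134, 2431, 2086, 1344 and 864 CPM, and Klf1 at 256, 298, 1411, 999.3, 638 and 499 CPM, both highest in the step that starts at 1000 genes. Alad, which makes an enzyme of an early step of heme synthesis, also peaked there, at 2168 CPM, while Fech, whose enzyme inserts the iron, followed Alas2 with 8284, 6864, 4208, 2012, 1175 and 577 CPM. The 20, 20, 35, 47, 10 and 10 cells of the steps all come from 1 library, so the order describes these cells, and the lowest steps rest on 3 UMIs for Klf1 and 8 for Cpox. The step of 4000 or more genes includes the 3 red cells with more UMIs of other markers than of erythroid ones. These had 7084, 5961 and 6120 genes, and their part in the values of that step was not tested. Other RNA moved over the same steps: ribosomal protein genes summed to 166610 CPM in cells under 500 genes and 335139 CPM in those of 4000 or more, and the part of this in the order of the members was not tested.

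**Figure D4:**
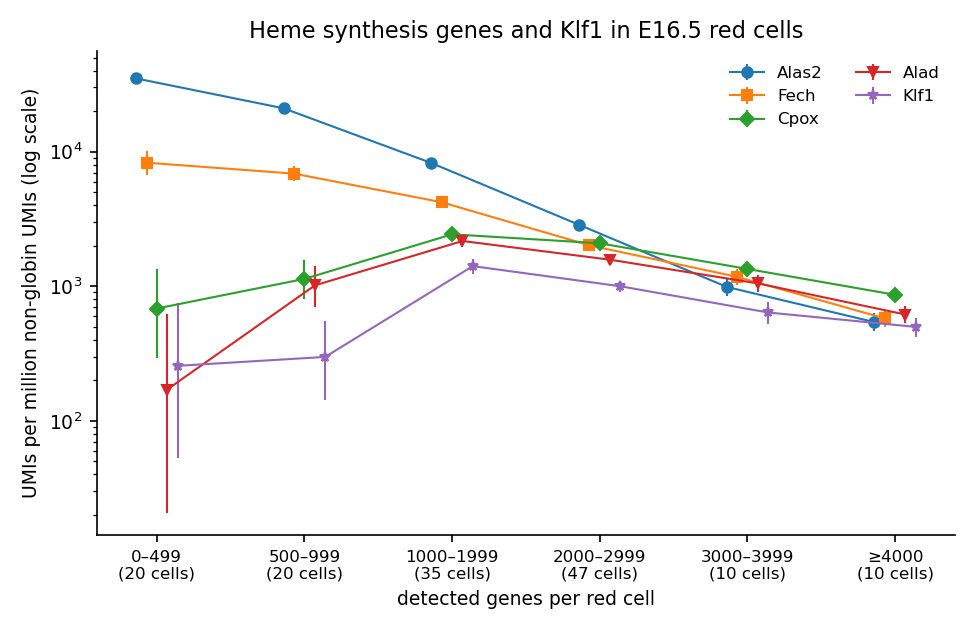
Levels of Alas2, Fech, Cpox, Alad and Klf1 in E16.5 red cells, in CPM of non-globin UMIs on a log axis, by steps of detected genes; bars are exact 95% Poisson intervals. Alas2 runs between 35013 CPM under 500 genes and 541 CPM at 4000 or more, whereas Cpox and Klf1 peak at 2431 and 1411 CPM in the step that starts at 1000 genes. The last step includes the 3 red cells with more UMIs of other markers than of erythroid ones.

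Postnatal red cells held Alas2 at or above the E16.5 level, and at P14 they held a single Cpox UMI and no Klf1 UMI. In red cells with 1000 or more genes, P7 was 1.10 times E16.5 for Alas2 (0.922 to 1.30), 0.709 times for Cpox (0.535 to 0.923) and 0.918 times for Klf1 (0.646 to 1.27). Of these only the interval of Cpox excludes 1. The P7 sum includes the cell with pericyte markers, which held 12996 of the 48082 non-globin UMIs of that sum, with 0 Cpox and 0 Klf1 UMIs. The ratios without this cell were not computed. In red cells under 1000 genes Alas2 stood at 24615, 26731 and 46738 CPM at E16.5, P7 and P14, so that P14 was 1.90 times E16.5 (1.68 to 2.14) and 1.75 times P7 (1.46 to 2.1). These ratios hold on the scale of non-globin UMIs. Per 1000 adult globin UMIs Alas2 gave 2.05 (1.93 to 2.17), 2.57 (2.21 to 2.97) and 2.55 (2.29 to 2.83). On that scale P14 was above E16.5 but not above P7. The P14 cells also had fewer genes, with a median of 356, against 520 at P7 and 500.5 at E16.5. Whether the steps within E16.5 account for the higher P14 level of Alas2 was not tested.

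All 11 P14 red cells had Alas2, between 14 and 205 UMIs, while Cpox had 1 UMI, in the largest cell, and Klf1 had 0. In the 10 P14 cells under 1000 genes 0 UMIs allow up to 394 CPM, below the 1017 CPM of Cpox but above the 288 CPM of Klf1 in the matching E16.5 cells, so an absence of Klf1 relative to E16.5 was not detectable there. All 14 P7 red cells had Alas2, between 9 and 67 UMIs. Cpox was counted in 9 of them, with at most 17 UMIs in a cell, and Klf1 in 9, with at most 8.

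Nearly the whole heme pathway was higher in E16.5 red cells with 1000 or more genes than in all cells below 10%. A gene was counted as higher or lower at a 2-fold difference on log2(CPM + 10) of non-globin UMIs, with at least 10 UMIs in both sums together; with 1 library this is a description and not a test. Of 9 heme synthesis genes 8 were higher and 1 lower, with a median log2 difference of 3.53, where over all 15266 genes 5.43% were higher and 17.4% lower with a median of -0.36. On the scale of all UMIs the median of all genes was -0.66. Alas2 differed most, at 2709 and 31.4 CPM (log2 difference 6.04). It was followed by Fech (4.14), Cpox (3.75, 1671 and 115 CPM), Urod (3.53) and Uros (3.42), the last pair making enzymes of the middle steps. Alad, for an early step, differed by 3.06 and Ppox, for the step before iron insertion, by 2.94.

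Alas1 was the exception. It makes the housekeeping form of the enzyme that Alas2 makes in red cells, and it stood at 2.77 CPM in the red cells, on 3 UMIs, and 20.3 CPM in the cells below 10% (-1.25 on the log2 scale), a ratio of 0.136 (0.0277 to 0.407). Counted against the cells outside the erythroid-like cluster alone, the heme list again had 8 higher and 1 lower.

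The other erythroid lists were read the same way and were chosen with earlier results known. Of 16 erythroid transcription factors 12 were higher and 1 lower (median 2.42), among them Klf1 (3.22) and Lmo2 (3.17) at the top, and Gata2 (-1.18) and Runx1 (-0.82), factors of progenitor cells, at the bottom. Without the erythroid-like cells on the other side 12 were higher and 0 lower, so the call of Gata2 as lower was lost. On the scale of all UMIs 10 factors were higher and 2 lower. Of 27 genes of heme and iron handling 15 were higher and 1 lower (1.48), with the mitochondrial iron importer Slc25a37 at 4.80 and Blvrb, a heme breakdown enzyme gene, at 3.43. At that list's other end stood Hmox1 (-1.29), which makes heme oxygenase, and Ireb2 (-0.99), a sensor of iron. On the scale of all UMIs 13 genes of that list were higher and 4 lower (median 0.74). All 18 red cell membrane genes were higher (3.32), with Epb41 (1.91) and Add2 (2.54) at the low end and Slc4a1, the anion exchanger gene, at 4.68. The list headed globin folding and red cell enzymes is mixed and also holds erythroid genes of other kinds, such as Hemgn. Of its 14 genes 12 were higher and 0 lower (2.72), led by Hemgn (4.70). Those below were Xpo7 (0.72, but -0.01 on the scale of all UMIs) and Ube2o (0.90). On the scale of all UMIs 10 genes of this mixed list were higher and 0 lower (median 1.90).

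Mitosis genes went with them: 12 of 12 were higher (2.24), from Tpx2 (1.54) and Cenpf (1.56) to Mki67 (2.70) and Ube2c (3.60). On the scale of all UMIs 10 of 12 were higher (median 1.42). Of 4 long nuclear RNAs 0 were higher and 2 lower, with Meg3 at -4.25, Kcnq1ot1 at -1.12, Malat1 at -0.07 and Neat1 at 0.20. Of 8 measured globin genes outside the members, only Cygb was compared on this scale, and it was lower. The alpha-like pseudogene Hba-ps4 had 252 UMIs in E16.5 red cells under 1000 genes and 404 in those with 1000 or more, Hbq1b, the theta globin gene, had 13 and 232, and Hbb-bh2 had 1.

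Between the E16.5 red cells under 1000 genes and those with 1000 or more, the heme genes parted. Over all 7203 genes 9.55% were higher and 44.5% lower under 1000 genes (median -0.81, and -1.14 on the scale of all UMIs), a direction that choosing cells with few genes favours. Of 8 heme genes 2 were higher, Alas2 (3.18) and Fech (2.00), and 1 lower, Uros (-1.04). Uros rested on 6 UMIs under 1000 genes, with a ratio of 0.468 (0.171 to 1.03), an interval that includes 1. On the scale of all UMIs Alas2 was within 2-fold (0.36) and Fech turned to -0.80, so that 0 heme genes were higher and 6 lower. Urod (0.89) also turned, to -1.87, while Cpox and Alad, both at -0.71, and Ppox, at 0.09, were within 2-fold on the main scale. On both scales the differences kept the order Alas2, Fech, Urod, Cpox.

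Of 14 erythroid transcription factors 7 were lower, among them Klf1 (-1.55), and 0 were higher, a lower share near the 44.5% of all genes; on the scale of all UMIs 13 were lower. Zbtb7a had 0 UMIs under 1000 genes and 230 in cells with 1000 or more, at least 3.20-fold lower when 0 is set to 3 UMIs, and Gfi1b had 0 and 178, at least 2.48-fold lower. Lmo2 (0.46) and Nfe2 (0.77) headed the list and turned to -2.22 and -1.68 on the scale of all UMIs. Among membrane genes 3 of 18 were higher and 7 lower, again near the share of all genes, and 0 and 16 on all UMIs, with Epb41 (3.01) at the top, and Aqp1, a water channel gene, at least 3.60-fold and Add2 at least 2.52-fold lower. Of 23 genes of heme and iron handling 5 were higher and 8 lower, and 0 and 19 on all UMIs. Ncoa4, which releases iron from ferritin, was at 3.69 (0.88 on all UMIs), the ferritin gene Ftl1 at 2.61 (-0.20 on all UMIs), Tmem14c at -2.95, and Slc25a38, a mitochondrial glycine carrier gene, at least 2.91-fold lower.

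The list headed globin folding and red cell enzymes stood at 9 of 14 higher and 3 lower (median 1.88) on the main scale, but at 1 higher and 6 lower (median -0.88) on the scale of all UMIs. Bpgm, which makes the enzyme of 2,3-bisphosphoglycerate synthesis, stood at 7055 CPM under 1000 genes and 257 CPM at 1000 or more (4.72, and 1.88 on all UMIs). Hemgn (-2.51) and Car1 (0 against 50 UMIs, too few for a bound) were at the other end. Mitosis genes were lower in 11 of 12 cases (-2.37), and in 12 of 12 on all UMIs, with Aurkb at -3.94, Top2a at -3.13 and Cdk1 at -1.50, and Ube2c at 0.74 (-2.02 on all UMIs). Of the long nuclear RNAs, Neat1 (2.72) and Meg3 (2.39) were higher on the main scale, at 0.07 and -0.12 on all UMIs, and Malat1 and Kcnq1ot1 were both at -0.05.

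A cluster of 39 cells below the 10% line, 34 at E16.5, 4 at P7 and 1 at P14, was erythroid-like by its markers. The list genes were kept out of the clustering, but other erythroid genes shaped it, so its levels are a description. At E16.5 its cells held a median of 2.28% adult globin (0.403% to 9.36%), 28678 UMIs and 4999.5 genes, and 3238 erythroid against 751 other marker UMIs; Car2 and Ccl5 were among its leading genes. The P14 cell had 0 erythroid and 112 other marker UMIs, against the name of its cluster.

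In these cells Klf1 and Cpox were present with little Alas2. Relative to E16.5 cells outside the cluster, Klf1 was 38.7-fold (29.3 to 52.0), Cpox 17.9-fold (14.9 to 21.6) and Alas2 1.75-fold (1.26 to 2.40) higher. The red cells with 1000 or more genes were above the erythroid-like cells by 56.0-fold for Alas2 (42.9 to 74.5), 3.28-fold for Cpox (2.98 to 3.61) and 2.07-fold for Klf1 (1.85 to 2.31). At P7 the 4 cells repeated this split, with 333 CPM of Klf1, 309 CPM of Cpox and 0 Alas2 UMIs. Shares of cells with a UMI gave the same picture at E16.5: after thinning, Klf1 was found in 10.0% of red cells under 1000 genes, 83.3% of those with 1000 or more, 76.5% of erythroid-like cells and 4.95% of other cells, and Alas2 in 92.5%, 94.1%, 35.3% and 13.1%. Without thinning the shares were 20%, 95.1%, 88.2% and 15.2% for Klf1, and 92.5%, 99.0%, 67.6% and 37.1% for Alas2, at median depths of 12313, 16236, 28678 and 13877 UMIs.

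Ordered by adult globin, the E16.5 erythroid-like cells fell into 13 cells below 1%, 11 cells at 1% to 5% and 10 cells at 5% to 10%. Klf1 stood at 282, 500 and 647 CPM, Cpox at 241, 639 and 1030 CPM, and Alas2 at 23.9, 45.2 and 118 CPM over these steps. Klf1 was thus high even in the cells whose adult globin was near that of the other cells, whereas Alas2 there was near the 27.7 CPM of the other cells. Gata2, a progenitor factor gene, ran the opposite way, with 52, 1 and 0 UMIs, as did Myb with 51, 9 and 0. Hbb-bt gave 22.8%, 14.4% and 14.4% of adult beta UMIs, and the adult alpha genes 42.9%, 49.3% and 52.4% of adult globin UMIs. The first Hbb-bt share lies near the 22.1% of the other cells, and the first alpha share between their 37.2% and the 50.3% of all erythroid-like cells.

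Free adult globin RNA was measured in the cells outside the red cells. All cells below 10% held 9732, 580 and 685 CPM at E16.5, P7 and P14. Without the erythroid-like cluster the levels were 6053, 455 and 686 CPM, and with cells at 1% or more also left out they were 5680, 455 and 445 CPM. The level at E16.5 was thus about an order of magnitude above those of the postnatal libraries in each version, in the library where red cells were 30.9% of barcodes, against 2.75% and 1.88%.

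The free level was alike across depths and classes. With the cells of a library ranked by UMIs and cut into 3 equal sets, those of 2% or more left out, it was 5794, 5668 and 5666 CPM at E16.5, which is 54.9, 80.0 and 180 UMIs per cell, and it was 457, 459 and 453 CPM at P7 and 431, 421 and 460 CPM at P14. By class it was 5664 CPM in germ cell-like, 5532 in endothelium-like, 6308 in stroma-like and 6538 in immune-like cells at E16.5. The medians over cells were 5564, 5326, 5269 and 5642 CPM in the same order. The stroma-like sum includes 1 cell with 5.09% adult globin, and the immune-like cells number 6. At P7 the classes outside the erythroid-like cluster lay between 389 and 537 CPM, and at P14 between 403 and 528 CPM apart from the endothelium-like cells at 3482 CPM. The last value came from 1 cell with 6.37% adult globin, in which Hbb-bt was 5.66% of adult beta UMIs, Alas2 and Klf1 were at 0, and erythroid markers had 4 against 217 other marker UMIs. A stroma-like E16.5 cell with 5.09% adult globin instead had 11 Alas2, 11 Cpox and 8 Klf1 UMIs, with 94 erythroid and 173 other marker UMIs.

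**Figure D5:**
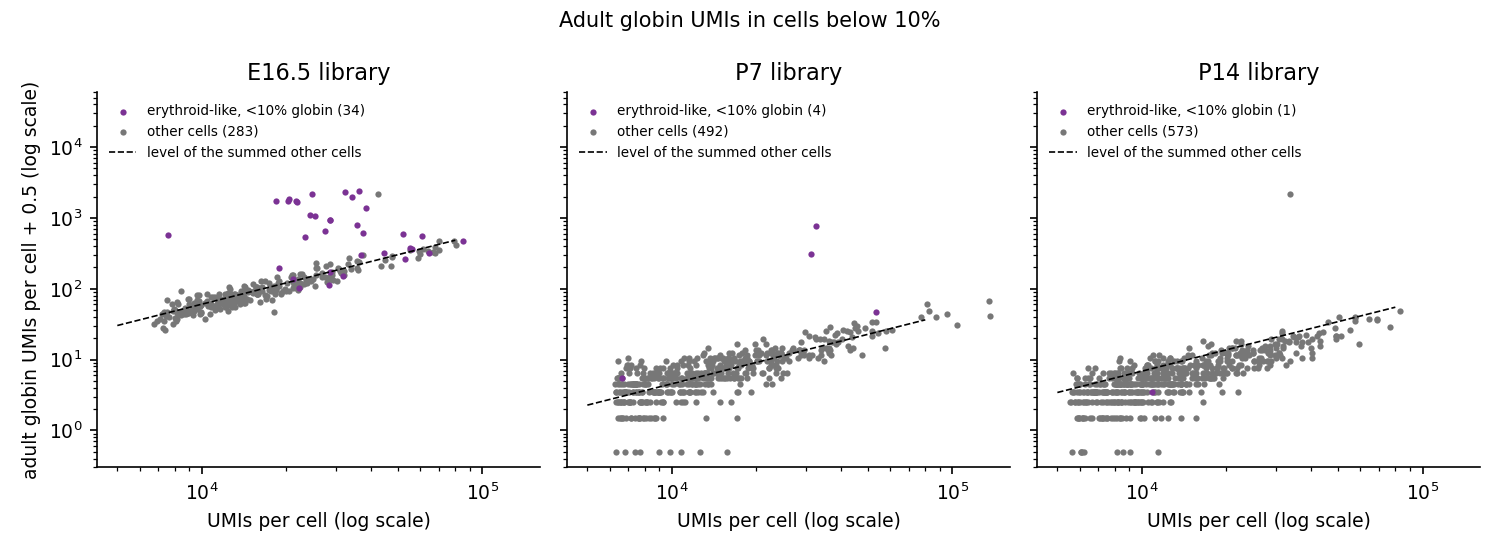
Each point is a cell below 10%, with its UMIs on a log axis against its adult globin UMIs (plus 0.5) on a log axis, in 1 panel per age; the dashed line is the level of the summed other cells, those of the erythroid-like cluster left out. Most other cells lie along the line, at 6053 CPM at E16.5 and 455 CPM at P7, and many erythroid-like cells of E16.5 lie above it.

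Set against the free globin itself, the members separated. Per 1000 adult globin UMIs, Alas2 gave 2.78 in all E16.5 red cells (2.69 to 2.86) and 4.54 in the other cells (3.83 to 5.35), 2.84 and 3.64 (1.99 to 6.11) at P7, and 2.75 and 2.47 (1.38 to 4.08) at P14. With cells at 1% or more left out, the other cells gave 4.51 at E16.5, 3.64 at P7 and 3.82 (2.14 to 6.31) at P14. Klf1 gave 0.649 and 1.77 (1.33 to 2.29) at E16.5, and at P7 and P14 it had 3 and 5 UMIs in the other cells. Alas2 and adult globin thus stood in a ratio within a factor of 2 of the red cells in each library, with intervals that overlap those of the red cells at P7 and P14. Cpox did not: it gave 1.27 in red cells and 4.67 in the others at E16.5, 0.55 and 32.2 at P7, and 0.0049 and 40.7 at P14. With cells at 1% or more left out, its P14 value in the other cells was 62.7. Cpox stood at 28.4, 14.7 and 28.0 CPM in the other cells of the 3 ages. At P14 the theca or steroidogenic-like cells had the most Cpox among the classes of 20 cells or more, 57.6 CPM.

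Across 20 sums of cell class and library, Alas2 was most like Hbb-bt (Pearson r = 0.972) and Hbb-bs (0.968) on log2(CPM + 10). Klf1 was most like Cldn13 (0.993), Asb17os (0.990) and Gata1 (0.990), Cpox like Ackr1 (0.968), Rhag (0.965) and Redrum (0.964), and Hba-x like Ncf4 (0.919) and Sowaha (0.874). The sums share libraries and free RNA, a pair of them are the E16.5 red cells that the rule chose by Hbb-bs, Hbb-bt and the adult alpha genes, so likeness to those genes is partly set by the choice of cells, and the values for Hba-x rest on few UMIs.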

How the data were processed

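The authors deposited UMI counts per gene and cell barcode, 1 table per age, made with Cell Ranger 2.1.1 on GRCm38, per the submitters' processing notes; the annotation, the strand setting and the way cells were called were not given in the sources used here. Members and gene lists were chosen with earlier results of these data known. Red cells and their split followed the rule given above. The other 1387 cells were clustered without the list genes (scanpy 1.11.5: 2000 variable genes, 30 principal components, 15 neighbours, Leiden resolution 1.0) and named from 104 marker genes of 10 classes, of which at least 3 had to be 2-fold higher and 1 among the 10 leading genes; 4 of 19 clusters stayed unnamed. UMIs were summed per group and library and scaled to CPM, of all UMIs for globins and of non-globin UMIs otherwise. Of 115 list genes 111 were measured. The 2 genes at each end of every list, and all members and heme genes, were named, apart from some genes that are not reported here. The fold script was checked on simulated counts. Levels rest on 45217 non-globin UMIs in E16.5 red cells under 1000 genes and 1083827 in those with 1000 or more. Alternatives are given in the closing section. Gene positions came from GENCODE M21, in which 10 of 10 member identifiers matched.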

Additional observations from a re-analysis of the deposited data

How the results depend on the processing

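Red cell numbers moved by less than counting error under all 9 alternatives run, as did 43 of 46 alternative values of the embryonic alpha share and 41 of 47 of the beta share. For red cells with 1000 or more genes against all cells below 10%, the scale of all UMIs gave 2 transcription factors lower in the red cells (1 as reported) and 372 genes higher and 4795 lower (829 and 2649); a pseudocount of 1 CPM gave 3 factors lower and 7209 genes lower; without the erythroid-like cells 0 factors were lower. Under 1000 genes against 1000 or more, the scale of all UMIs gave 0 heme genes higher and 6 lower (2 and 1), 13 factors lower (7), 0 membrane genes higher and 16 lower (3 and 7) and 7 genes higher (688), and no filter on low counts gave 1780 genes higher. Without cells holding any marker UMI of another class the E16.5 embryonic shares were 0% of alpha and 0.00925% of beta under 1000 genes (9 cells) and 0% and 0.0185% at 1000 or more (3 cells). A split at 500 genes gave 0% of alpha at E16.5 and 0% of beta at P7 under the split, also 0% at P7 without marker cells, and a split at 2000 gave 0.0183% of beta at E16.5 above it. Without the pair of cells richest in Hbb-bh1, left out after seeing the data as were the erythroid-like cells, the E16.5 beta share at 1000 or more genes was 0.00742%. The free level was 5867, 492 and 445 CPM below 2% adult globin, 6856 and 445 CPM at E16.5 and P14 below 5%, 8904, 522 and 543 CPM as a mean over cells, and 6053 and 455 CPM at E16.5 and P7 without erythroid-like cells. The causes were not tested. No paired analysis was possible because each age is 1 library. Embryonic globins after birth are limited by depth: 1 UMI at each age.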
